A study of Mus musculus with 8 samples.

Results

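The expression of 9 genes that store, carry, oxidise, saturate or break down vitamin A was compared between the livers of ISOGK-treated and vehicle-treated mice. The genes were *Retsat*, *Rbp4*, *Lrat*, *Dhrs3*, *Adh1*, *Rdh11*, *Rdh16*, *Aldh1a1* and *Cyp26a1*, taken by symbol from a table of read counts for 16540 genes. All 9 had a row and passed the filter on low counts, as did 12307 genes of the table. ISOGK is isoginkgetin, a biflavonoid from *Ginkgo biloba* that the study examined as an inhibitor of ATP citrate lyase, an enzyme that makes the acetyl-CoA from which fatty acids and cholesterol are built. The ISOGK group held 4 mice given 20 mg/kg per day for 8 weeks, and the control group held 4 mice given the vehicle over the same time, whose columns are named for DMSO. Mice of both groups were male, carried the *Apoe*-/- genotype, which raises plasma cholesterol, and ate a Western diet. That is the term of the labels, and the paper's methods name a high cholesterol diet. By those methods the diet began weeks before ISOGK, which was injected intraperitoneally. Mice with intact *Apoe* or on another diet were not analysed here. RNA came from whole liver, with 1 library per mouse, and the age of the mice is not given in the labels.

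Dietary vitamin A reaches the liver as retinyl esters, and hepatocytes either release retinol into the blood bound to RBP4 or pass it to stellate cells, which store it as esters made by LRAT. Alcohol and retinol dehydrogenases oxidise retinol to retinal in a reversible step, the ALDH1A enzymes oxidise retinal irreversibly to retinoic acid, and CYP26 enzymes break retinoic acid down. RETSAT takes retinol in another direction, by saturating a double bond to give dihydroretinol. Retinoic acid is the ligand of the nuclear receptors RAR, which bind DNA as partners of RXR.

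The libraries held 17457106 to 24461854 counts on genes, and the 9 members together took 0.398% to 0.463% of them with vehicle and 0.399% to 0.532% with ISOGK. The 10 hepatocyte markers examined, *Alb* and *Ttr* among them, were present in every library. Their summed CPM, that is counts relative to a common library size, were 155844 to 167879 with vehicle and 145700 to 179401 with ISOGK, and 0 of the 10 were called (edgeR quasi-likelihood test), with 1 under an unadjusted p of 0.05, 1 called by DESeq2 and 0 by limma-voom. Of the 10 hepatocyte markers, 9 had a positive log2 fold change and 1 a negative one (median 0.06). Among markers of other cells, *Cd68* of macrophages was lower and *Sox9* of bile duct cells and *S100a9* of neutrophils were higher with ISOGK. The summed macrophage markers were at 1065 to 1370 CPM with vehicle and 851 to 1101 CPM with ISOGK. The test called 1 of the 8, against 7.55% of all genes tested. Of the 8, 7 had a negative log2 fold change (median -0.54), with 2 under an unadjusted p of 0.05, 2 called by DESeq2 and 1 by limma-voom. Bile duct markers summed to 27.6 to 34.8 and 28.3 to 69.2 CPM, with 1 of 5 tested called. All 5 had a positive log2 fold change (median 0.61), with 4 under an unadjusted p of 0.05, 2 called by DESeq2 and 1 by limma-voom. Lymphocyte and neutrophil markers summed to 4.20 to 7.59 and 7.75 to 18.4 CPM, without overlap, with 1 of 4 tested called. All 4 had a positive log2 fold change (median 0.86), with 2 under an unadjusted p of 0.05, 2 called by DESeq2 and 1 by limma-voom. Endothelial markers summed to 436 to 499 CPM with vehicle and 432 to 485 CPM with ISOGK, with 0 of 8 called. Of these 8, 5 had a negative log2 fold change and 3 a positive one (median -0.09), with 1 under an unadjusted p of 0.05. DESeq2 and limma-voom called 0 of them. None of these markers was at 0 in all libraries, and their part in the values below was not tested. The library of vehicle-treated mouse 4 had the highest count of all 10 skeletal muscle markers, 55 to 451 counts against at most 49 elsewhere, and values without this mouse are given where they change a call.

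ISOGK-treated livers held more *Retsat* and *Rbp4* RNA and less *Adh1* RNA, while the 6 other members did not pass the test. *Retsat* rose 2.51-fold, *Rbp4* rose 1.30-fold and *Adh1* fell to 0.666 times the vehicle level. Of 16 alternative analyses, *Retsat* was called in all, *Adh1* in 13 and *Rbp4* in only 8. A gene was called at an adjusted p under 0.05 in the quasi-likelihood test of edgeR, fitted over all genes tested. Thus 3 of the 9 members (33.3%) were called, against 7.55% of all genes tested, with 2 higher (background 4.11%) and 1 lower (background 3.44%). At an unadjusted p under 0.05 there were 4 members, and DESeq2 and limma-voom called 4 and 3 of them. The share of all genes under this unadjusted threshold was not taken, so counts under it, for these and other lists, have no background. Over all 12307 genes tested, DESeq2 called 765 higher and 670 lower, and limma-voom called 461 higher and 411 lower. Only *Retsat* also had a log2 fold change beyond 1 in size, as did 1.63% of all genes. The groups did not overlap for the same 3 members, 2 higher and 1 lower, against a background of 15.3% (7.92% higher and 7.36% lower). The median log2 fold change of the members was -0.13, beside 0.00 over all genes tested. The members were chosen with earlier results of these data known, and no test was made of the list as a whole.

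**Figure D1:**
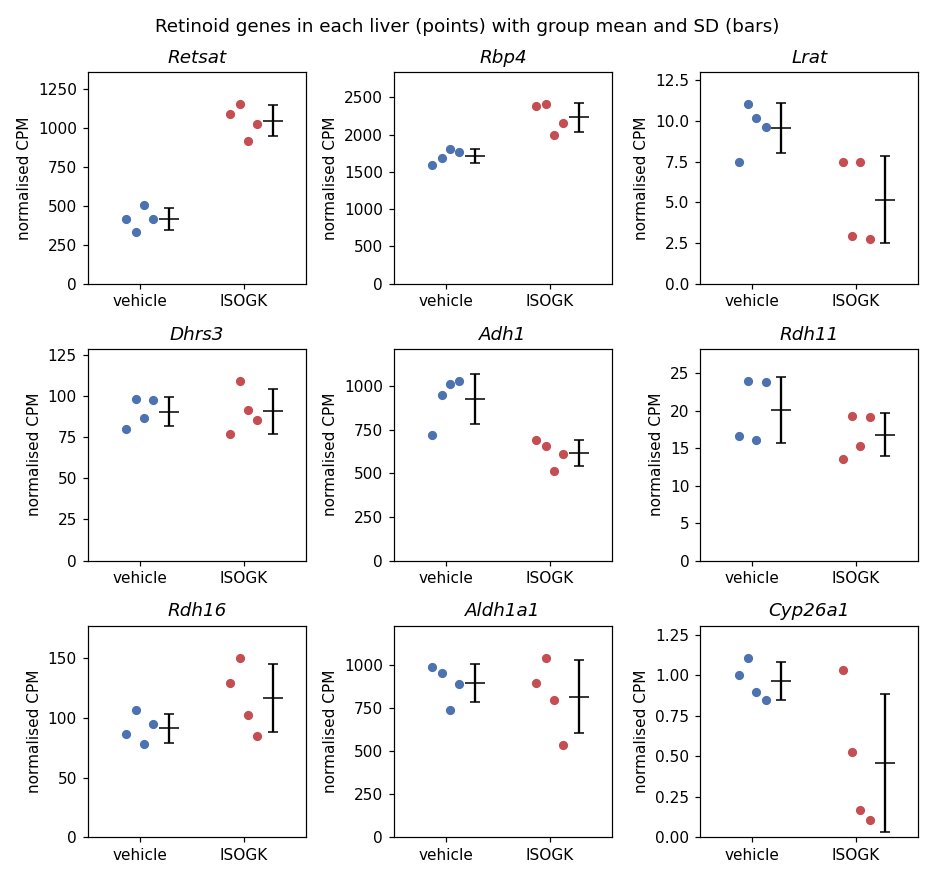
Normalised CPM (vertical axes, each from 0) of the 9 members in each of the 4 vehicle-treated and 4 ISOGK-treated mice (points, in order of replicate number), with the group mean and SD (bars). *Retsat* and *Rbp4* were higher and *Adh1* was lower in every ISOGK-treated mouse than in every vehicle-treated mouse, and the groups overlapped for the other 6.

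**Figure D2:**
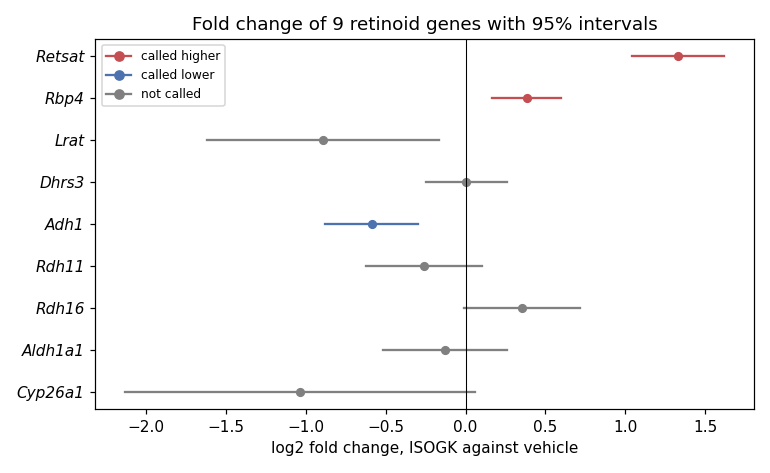
Log2 fold change of each member, ISOGK against vehicle (horizontal axis), with its 95% confidence interval from edgeR and colour for calls at an adjusted p under 0.05. The interval of *Retsat* ran from 1.04 to 1.62, that of *Dhrs3* spanned 0 closely, and those of *Lrat* and *Cyp26a1* were the widest.

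Levels of different genes were compared as CPM per kilobase of exon, with the exons of all transcripts of a gene merged. In the vehicle group, *Rbp4* was the most abundant member at 1277 ± 68.2 CPM per kb (SD, n = 4). It was followed by *Adh1* at 415 ± 64.5, *Aldh1a1* at 181 ± 22.3 and *Retsat* at 118 ± 20.0 CPM per kb. *Dhrs3*, *Rdh16* and *Rdh11* stood at 30.9 ± 2.96, 14.7 ± 1.98 and 5.83 ± 1.27 CPM per kb, and *Lrat* and *Cyp26a1* were the scarcest at 1.79 ± 0.283 and 0.486 ± 0.0584 CPM per kb. No neighbours in this order overlapped between vehicle-treated mice. The order depends on the length used, and by CPM alone *Rdh16* had rank 5 and *Dhrs3* rank 6. In the ISOGK group *Retsat* took the rank after *Rbp4*, at 296 ± 28.5 CPM per kb, beside *Adh1* at 276 ± 34.0 and *Aldh1a1* at 165 ± 42.9. The *Retsat* and *Adh1* levels of ISOGK-treated mice overlapped (260 to 326 and 230 to 309 CPM per kb), whereas in vehicle-treated mice *Adh1* at 321 to 460 lay above *Retsat* at 93.8 to 143 CPM per kb. *Lrat* and *Cyp26a1* were the only other neighbours to overlap in the ISOGK group.

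*Retsat*, the retinol saturase, lies on chromosome 6 (chr6:72598475-72608425, plus strand, GRCm38). Its normalised level was 417, 332, 505 and 414 CPM in vehicle-treated mice 1 to 4 and 1093, 1155, 919 and 1026 CPM in ISOGK-treated mice 1 to 4. The lowest ISOGK-treated mouse was thus well above the highest vehicle-treated mouse. The means were 417 ± 70.7 and 1048 ± 101 CPM (SD, n = 4 each), a log2 fold change of 1.33 with a standard error (SE) of 0.13 and a 95% interval of 1.04 to 1.62 (edgeR adjusted p = 0.000338). The exact permutation test of log2 CPM gave p = 0.0286 (two-sided), the smallest p that 4 mice against 4 allow. *Retsat* was called in all 16 alternative analyses, with log2 fold changes of 1.19 to 1.43. Of the 50-base windows of its transcripts, 14.1% also occurred in transcripts of *Gm45053*, so reads there cannot be assigned to 1 of these genes.

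*Elmod3* starts 62 bases away from *Retsat* on the other strand, and *Tgoln1* ends 7 bases beyond the *Retsat* end, also on the other strand. Neither passed the test, with log2 fold changes of 0.39 (SE 0.12, edgeR adjusted p = 0.0625) for *Elmod3* and 0.24 (SE 0.09, edgeR adjusted p = 0.143) for *Tgoln1*. The next genes on each side, *Capg* and *Tcf7l1*, had log2 fold changes of -0.62 (edgeR adjusted p = 0.0580) and -0.43 (edgeR adjusted p = 0.0731). All 4 of these nearest tested genes thus missed the threshold. Whether counting used the strand is not given in the sources used here, so reads that cross into a neighbour on the other strand cannot be told apart.

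*Rbp4* encodes the plasma carrier of retinol and lies on the minus strand of chromosome 19 (chr19:38116629-38125281). It was at 1599, 1690, 1804 and 1770 CPM in vehicle-treated mice 1 to 4, and at 2379, 2410, 2000 and 2156 CPM in ISOGK-treated mice 1 to 4. Every ISOGK-treated mouse was above every vehicle-treated mouse, though by a smaller margin than for *Retsat*. The means were 1716 ± 91.6 and 2236 ± 194 CPM (SD, n = 4 each), with a log2 fold change of 0.38 (SE 0.10, 95% interval 0.17 to 0.60, edgeR adjusted p = 0.0381). The exact permutation test gave p = 0.0286 (two-sided), the smallest possible. The call was lost in 8 of 16 alternatives, with a log2 fold change of 0.25 and an adjusted p of 0.150 when edgeR scaled by library size alone, and with adjusted p-values of 0.0758 to 0.116 when vehicle-treated mouse 1, 2, 3 or 4 or ISOGK-treated mouse 1 or 2 was left out. *Ttr*, whose product transthyretin carries RBP4 in plasma, had a log2 fold change of -0.18 (95% interval -0.52 to 0.16, edgeR adjusted p = 0.528).

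*Adh1*, an abundant liver alcohol dehydrogenase that oxidises ethanol and retinol, lies on chromosome 3 (chr3:138260991-138290698, plus strand). Vehicle-treated mice 1 to 4 had 717, 948, 1013 and 1027 CPM, and ISOGK-treated mice 1 to 4 had 689, 653, 513 and 612 CPM. The groups did not overlap, although vehicle-treated mouse 1 was close to ISOGK-treated mouse 1. The means were 926 ± 144 and 617 ± 76.0 CPM (SD, n = 4 each), with a log2 fold change of -0.59 (SE 0.13, 95% interval -0.88 to -0.30, edgeR adjusted p = 0.0229) and an exact permutation p of 0.0286 (two-sided). The adjusted p from edgeR was 0.0716, 0.0684 and 0.0660 without vehicle-treated mouse 2, 3 and 4, where its log2 fold changes were -0.58, -0.54 and -0.53, while it stayed called in the 13 other alternatives. Of the 50-base windows of its transcripts, 2.11% also occurred in other genes, mainly *Gm16559*.

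No other tested gene of the *Adh* cluster was called beside *Adh1*. *Adh7* and *Adh4*, its neighbours on chromosome 3, had log2 fold changes of -0.03 (95% interval -0.45 to 0.39, edgeR adjusted p = 0.953) and 0.15 (95% interval -0.21 to 0.51, edgeR adjusted p = 0.636). *Adh5*, the form that oxidises glutathione-bound formaldehyde, had a log2 fold change of 0.06 (95% interval -0.17 to 0.29, edgeR adjusted p = 0.788). *Adh1* made up 78.1% to 83.3% of the summed CPM per kb of *Adh1*, *Adh4*, *Adh5* and *Adh7* in vehicle-treated mice and 69.2% to 75.1% in ISOGK-treated mice, without overlap. The ratio of *Adh1* to *Adh5* counts within a library, which does not depend on scaling, was 2.66, 3.31, 4.11 and 3.91 in vehicle-treated mice 1 to 4 and 2.53, 2.18, 2.22 and 2.01 in ISOGK-treated mice 1 to 4. These ratios did not overlap either, with vehicle-treated mouse 1 again nearest to the ISOGK group. The pair was chosen after the values were seen, and the ratio is a description without a test.

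Stretches from before the RefSeq start of each called gene are shown because *Retsat*, *Rbp4* and *Adh1* were the members whose RNA differed. They are RefSeq sequence of GRCm38.p6, 5′ to 3′ on the strand of the gene, limited to bases in no annotated exon. The *Retsat* stretch of 61 bases (chr6:72598414-72598474) is the whole interval between the GENCODE starts of *Elmod3* and *Retsat*, and 127 bases separate it from the *Retsat* start in RefSeq. RefSeq starts *Adh1* inside the span that GENCODE gives the gene. The *Adh1* stretch of 159 bases (chr3:138277335-138277493) therefore lies between exons of the longer GENCODE gene, and 91 bases separate it from the RefSeq start. The *Rbp4* stretch of 250 bases (chr19:38125322-38125571, minus strand) ends directly at the RefSeq start.
Retsat: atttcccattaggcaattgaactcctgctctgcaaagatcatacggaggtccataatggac
Adh1: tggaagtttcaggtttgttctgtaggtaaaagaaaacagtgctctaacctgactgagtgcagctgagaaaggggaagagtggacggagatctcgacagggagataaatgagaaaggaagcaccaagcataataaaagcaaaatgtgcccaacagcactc
Rbp4: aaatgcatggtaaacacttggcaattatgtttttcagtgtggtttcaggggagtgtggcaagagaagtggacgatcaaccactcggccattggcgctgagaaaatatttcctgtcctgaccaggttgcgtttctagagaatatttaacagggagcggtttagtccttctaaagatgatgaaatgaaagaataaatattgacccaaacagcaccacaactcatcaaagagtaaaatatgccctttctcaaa
Windows from 250 bases before to 50 bases after each RefSeq start were searched on both strands for AGGTCA, the core element that many nuclear receptors bind, and for its repeats spaced by 1 base (AGNTCANAGNTCA), 2 bases (AGNTCANNAGNTCA) or 5 bases (AGNTCANNNNNAGNTCA). None of these strings was in the windows of *Retsat*, *Rbp4* or *Adh1*, which says only that these letters are not in these windows. AGGTCA was found in 16.3% of 32851 windows of all genes, and among the members in those of *Rdh16* and *Rdh11*, which were not called.

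*Lrat*, the enzyme that makes storage esters in stellate cells, lies on the minus strand of chromosome 3 (chr3:82892579-82903973). It had 7.48, 11.0, 10.2 and 9.65 CPM in vehicle-treated mice 1 to 4 and 7.50, 2.96, 7.46 and 2.78 CPM in ISOGK-treated mice 1 to 4. ISOGK-treated mice 2 and 4 were far below all others, while mice 1 and 3 of that group were level with vehicle-treated mouse 1. The log2 fold change was -0.89 (SE 0.32, 95% interval -1.62 to -0.17) and did not pass the test (edgeR adjusted p = 0.130). DESeq2 gave an adjusted p of 0.0392 for a log2 fold change of -0.89, and the exact permutation test of log2 CPM gave p = 0.0571 (two-sided). Counting error was smaller than these gaps. The 53 counts of ISOGK-treated mouse 4 allow 2.08 to 3.63 CPM and the 149 counts of vehicle-treated mouse 1 allow 6.32 to 8.78 CPM (exact Poisson 95% intervals, which cover counting error only).

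Fewer stellate cells and less *Lrat* RNA per cell cannot be told apart in whole liver. As a description only, *Lrat* was set beside 12 other stellate cell markers. In ISOGK-treated mouse 2 *Lrat* was at -1.65 relative to the vehicle mean on the log2 scale, while the other markers had a median of -0.05 and ranged from -1.07 to 0.78. In ISOGK-treated mouse 4 it was at -1.74, beside a median of -0.51 and a range of -1.39 to 0.29. *Lrat* was the lowest of the 13 markers in both mice, which were singled out because *Lrat* was low in them, so its rank there is not a test. The 12 other markers summed to 412 to 549 CPM with vehicle and 332 to 589 CPM with ISOGK. Of the 13 markers, 0 were called, against 7.55% of all genes tested, with 2 under an unadjusted p of 0.05, 1 called by DESeq2 and 0 by limma-voom. For so short a list 0 calls are near that share. With *Lrat* included, 11 of the 13 had a negative log2 fold change and 2 a positive one (median -0.16).

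**Figure D3:**
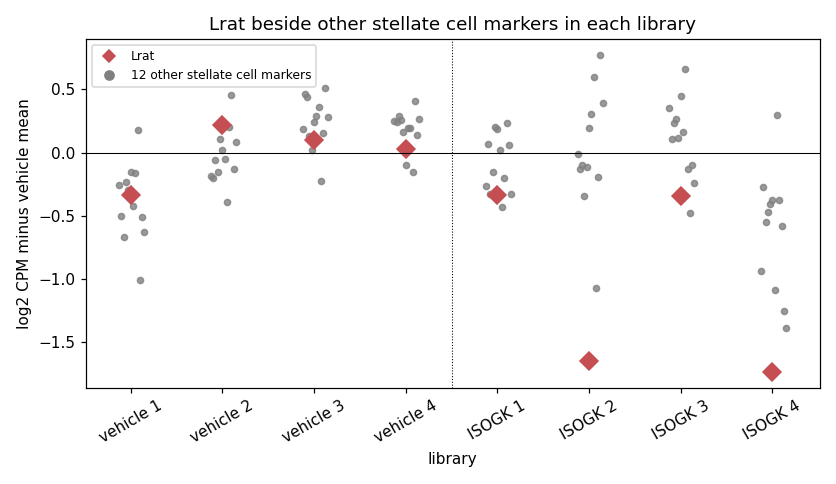
Log2 CPM minus the log2 vehicle mean (vertical axis) of *Lrat* (diamonds) and 12 other stellate cell markers (points) in each of the 8 libraries. In ISOGK-treated mice 2 and 4 *Lrat* was lower than all 12 other markers, and in the other 6 libraries between 1 and 11 of the 12 were below it.

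*Dhrs3*, which reduces retinal back to retinol, lies on chromosome 4 (chr4:144892827-144928209, plus strand). Its level was 80.2, 97.9, 86.4 and 97.4 CPM in vehicle-treated mice 1 to 4 and 76.9, 109, 91.3 and 85.6 CPM in ISOGK-treated mice 1 to 4. The lowest and the highest mouse were both in the ISOGK group. The log2 fold change was 0.00 (SE 0.12, 95% interval -0.25 to 0.26, edgeR adjusted p = 0.987), and its sign changed with the scaling.

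*Rdh11*, a microsomal retinol dehydrogenase that can also reduce retinal, lies on the minus strand of chromosome 12 (chr12:79174337-79192293). It had 16.7, 24.0, 16.0 and 23.9 CPM in vehicle-treated mice 1 to 4 and 13.5, 19.3, 15.3 and 19.2 CPM in ISOGK-treated mice 1 to 4. The groups overlapped, and the log2 fold change of -0.26 (95% interval -0.62 to 0.10, edgeR adjusted p = 0.370) did not pass the test.

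*Rdh16*, a microsomal enzyme that oxidises retinol and some steroids, belongs to a cluster of related genes on chromosome 10 (chr10:127801152-127846565, plus strand). It was at 86.5, 107, 78.0 and 94.7 CPM in vehicle-treated mice 1 to 4 and at 129, 151, 103 and 85.1 CPM in ISOGK-treated mice 1 to 4. ISOGK-treated mice 1 and 2 were above every vehicle-treated mouse, and the other two lay among them. Its log2 fold change of 0.35 did not pass the test (95% interval -0.01 to 0.72, edgeR adjusted p = 0.219).

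A relative in the cluster, *Rdh16f2*, was called in the other direction, with a log2 fold change of -0.43 (SE 0.10, edgeR adjusted p = 0.0249). It had 107, 138, 125 and 129 CPM in vehicle-treated mice 1 to 4 and 84.2, 96.0, 96.2 and 95.7 CPM in ISOGK-treated mice 1 to 4, without overlap. This call was lost when vehicle-treated mouse 2, 3 or 4 or ISOGK-treated mouse 1 or 2 was left out (edgeR adjusted p = 0.0522 to 0.0906). The ratio of *Rdh16* to *Rdh16f2* counts was 0.807, 0.773, 0.623 and 0.733 in vehicle-treated mice 1 to 4 and 1.53, 1.57, 1.07 and 0.890 in ISOGK-treated mice 1 to 4, a pair again chosen after its values were seen. The ratio was higher in every ISOGK-treated mouse than in every vehicle-treated mouse. Of the 50-base windows of the transcripts, 14.5% for *Rdh16* and 122 of 1216 for *Rdh16f2* also occurred in other genes, mainly relatives such as *Rdh9* and *Rdh16f1*, so the split of reads within the cluster is uncertain. *Rdh7* and *Rdh9* of the same cluster had log2 fold changes of -0.16 (95% interval -0.36 to 0.04, edgeR adjusted p = 0.322) and -0.02 (95% interval -0.34 to 0.30, edgeR adjusted p = 0.947).

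*Hsd17b6*, an oxidase of androgens and retinol at the far end of this cluster, was also called lower. It was at 127, 173, 203 and 144 CPM in vehicle-treated mice 1 to 4 and at 89.7, 34.1, 49.6 and 67.3 CPM in ISOGK-treated mice 1 to 4, without overlap. *Hsd17b6* fell by a log2 fold change of -1.43 (SE 0.28, 95% interval -2.07 to -0.78, edgeR adjusted p = 0.0209). The edgeR adjusted p was 0.0654, 0.0553 and 0.0611 without vehicle-treated mouse 2, vehicle-treated mouse 3 and ISOGK-treated mouse 4.

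**Figure D4:**
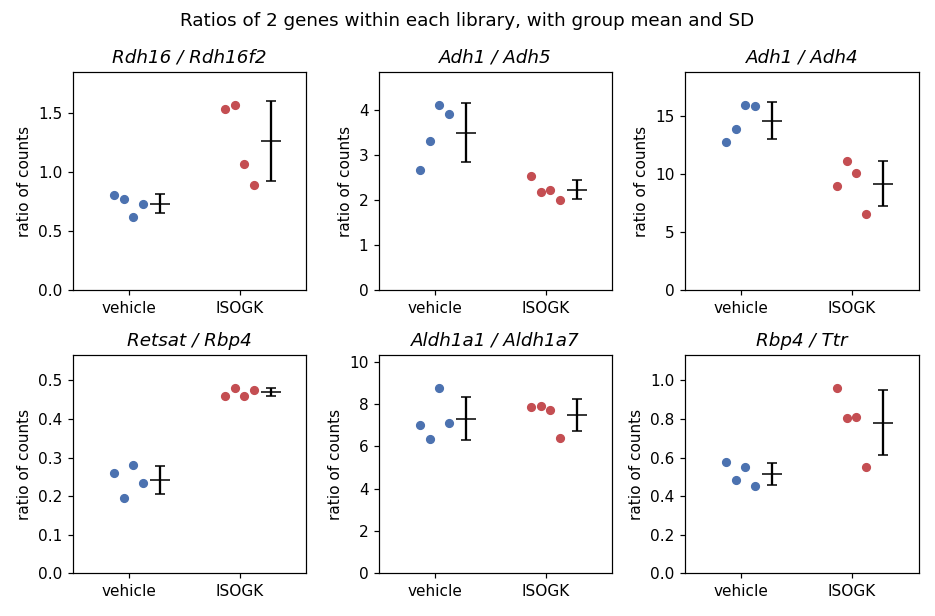
Ratio of the counts of 2 genes within each library (vertical axes, each from 0) in the 4 vehicle-treated and 4 ISOGK-treated mice (points), with the group mean and SD (bars). The groups did not overlap for the upper 3 pairs and for *Retsat* to *Rbp4*, which was 0.196 to 0.280 with vehicle and 0.460 to 0.479 with ISOGK, and they overlapped for *Aldh1a1* to *Aldh1a7* and *Rbp4* to *Ttr*.

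*Aldh1a1*, which oxidises retinal to retinoic acid, lies on chromosome 19 (chr19:20492715-20643465, plus strand). Vehicle-treated mice 1 to 4 had 989, 956, 742 and 889 CPM, and ISOGK-treated mice 1 to 4 had 894, 1041, 794 and 538 CPM. The lowest and the highest value were both from ISOGK-treated mice. The log2 fold change was -0.13 (95% interval -0.52 to 0.26, edgeR adjusted p = 0.702), and 0.025 without ISOGK-treated mouse 4 (edgeR adjusted p = 0.937). The paralog *Aldh1a7*, which shares 3.06% of the 50-base windows of *Aldh1a1* transcripts, had a log2 fold change of -0.21 (95% interval -0.61 to 0.18, edgeR adjusted p = 0.515).

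*Cyp26a1*, the cytochrome P450 that clears retinoic acid and is itself induced by it, lies on chromosome 19 (chr19:37697798-37701536, plus strand), 415 kb from *Rbp4*. It was the scarcest member, with 20, 28, 23 and 19 counts in vehicle-treated mice 1 to 4 and 21, 10, 3 and 2 counts in ISOGK-treated mice 1 to 4. As CPM these were 1.00, 1.11, 0.896 and 0.849 in the vehicle group and 1.03, 0.528, 0.170 and 0.105 in the ISOGK group. ISOGK-treated mouse 1 was thus among the vehicle-treated mice, and the other 3 were below all of them. The log2 fold change of -1.04 (SE 0.50, 95% interval -2.13 to 0.06, edgeR adjusted p = 0.231) did not pass the test, and the exact permutation p was 0.114 (two-sided). It was -1.82 when ISOGK-treated mouse 1 was left out (edgeR adjusted p = 0.0434), so this library decides the call. The 2 counts of ISOGK-treated mouse 4 allow 0.0127 to 0.379 CPM and the 21 counts of ISOGK-treated mouse 1 allow 0.638 to 1.57 CPM (exact Poisson 95% intervals).

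The *Cyp26a1* start is preceded by a repeat of the kind that retinoic acid receptors bind, which is shown because the gene is used as a readout of retinoic acid. The repeat AGNTCANNNNNAGNTCA was in 0.204% of all windows searched (67 of 32851) and in 1 of 14 windows of the members, that of *Cyp26a1*, on the opposite strand. It spans chr19:37697776-37697792, from 32 to 16 bases before the RefSeq start, and is given in capitals within chr19:37697771-37697797 (GRCm38.p6), first on the strand of the gene and then on the other strand.
Cyp26a1, strand of the gene: aaagaTGAACTTTGGGTGAACTaattt
Cyp26a1, other strand: aaattAGTTCACCCAAAGTTCAtcttt
The match is a description of the sequence, and no binding was measured here.

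*Cyp26b1*, the related enzyme, had 12.0, 12.4, 7.83 and 11.3 CPM in vehicle-treated mice 1 to 4 and 10.6, 2.11, 2.54 and 4.87 CPM in ISOGK-treated mice 1 to 4. ISOGK-treated mouse 1 was again among the vehicle-treated mice and the other 3 were below them. Its log2 fold change was -1.10 (95% interval -2.17 to -0.02, edgeR adjusted p = 0.199). *Cyp26b1* was called in 1 of 16 alternatives, the one without ISOGK-treated mouse 1 (edgeR adjusted p = 0.00496). *Cyp2c39*, a cytochrome P450 that can also oxidise retinoic acid, had 2.26, 2.69, 0.701 and 1.74 CPM in vehicle-treated mice 1 to 4 and 2.89, 3.48, 4.86 and 3.04 CPM in ISOGK-treated mice 1 to 4. Every ISOGK-treated mouse was above every vehicle-treated mouse, the opposite direction to *Cyp26b1*. Its log2 fold change of 0.95 (95% interval 0.21 to 1.69) did not pass the test (edgeR adjusted p = 0.113). Of 12 genes listed as responsive to retinoic acid, *Cyp26a1*, *Cyp26b1*, *Lrat*, *Dhrs3* and *Rarb* among them, 9 had a row and 8 were tested. None of the 8 was called, against 7.55% of all genes tested, and for so short a list 0 calls are near that share. Of the 8, 2 were under an unadjusted p of 0.05, 1 was called by DESeq2 and 0 by limma-voom, and the median log2 fold change was -0.22.

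The pathway beyond the 9 members was covered by a list of 56 genes, of which 48 had a row and 42 were tested. Of these, 2 rose and 4 fell (14.3% called, against 7.55% of all genes tested), with a median log2 fold change of -0.06 and 16 under an unadjusted p of 0.05. No share over all genes stands beside the count of 16, so no excess is read from it. DESeq2 called 10 and limma-voom 5, to be read against their own calls over all 12307 genes (765 higher and 670 lower, and 461 higher and 411 lower). Carotenoid cleavage and ester turnover held 3 of the calls among 8 genes tested, and dehydrogenases and reductases held the other 3 among 16.

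*Bco2*, which cleaves carotenoids off centre in mitochondria, was at 16.2, 15.6, 15.7 and 15.1 CPM in vehicle-treated mice 1 to 4 and 10.8, 9.97, 8.93 and 6.92 CPM in ISOGK-treated mice 1 to 4. Vehicle-treated mice lay close together, and all ISOGK-treated mice were below them. *Bco2* had a log2 fold change of -0.77 (SE 0.14, edgeR adjusted p = 0.00607) and was called in all 16 alternatives. *Bco1*, which cleaves beta-carotene centrally to retinal, had a log2 fold change of -0.36 (95% interval -0.69 to -0.03, edgeR adjusted p = 0.167).

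*Dgat1*, which esterifies retinol as well as diacylglycerol, rose from 10.1 ± 1.32 to 15.2 ± 1.46 CPM (SD, n = 4 each), a log2 fold change of 0.60 (SE 0.13, edgeR adjusted p = 0.0161), without overlap. The edgeR adjusted p of *Dgat1* was 0.0522 without ISOGK-treated mouse 2. *Pnpla2*, a lipase of triglycerides, rose by a log2 fold change of 0.40 (SE 0.11, edgeR adjusted p = 0.0466), a call lost in 11 of 16 alternatives, among them those without vehicle-treated mouse 1, 2, 3 or 4 or ISOGK-treated mouse 1 or 2 (adjusted p = 0.0780 to 0.136). *Dhrs7*, a short-chain dehydrogenase that reduces steroids and retinal, fell from 15.8 ± 2.17 to 10.7 ± 1.77 CPM (SD, n = 4 each), with a log2 fold change of -0.57 (SE 0.15, edgeR adjusted p = 0.0366), and lost its call when vehicle-treated mouse 2, 3 or 4 or ISOGK-treated mouse 1 or 3 was left out (adjusted p = 0.0545 to 0.104).

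None of the 6 retinoid receptor genes was called, against 7.55% of all genes tested. None was under an unadjusted p of 0.05, and DESeq2 and limma-voom called 0. *Rara* had a log2 fold change of -0.15 (95% interval -0.40 to 0.10, edgeR adjusted p = 0.472). *Rxra*, whose product partners many nuclear receptors of the liver, had a log2 fold change of -0.17 (95% interval -0.38 to 0.05, edgeR adjusted p = 0.328). None of 5 tested genes of retinoid binding and transport was called either, with 2 under an unadjusted p of 0.05, 1 called by DESeq2 and 0 by limma-voom. For lists this short, 0 calls are near the share of 7.55%.

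**Figure D5:**
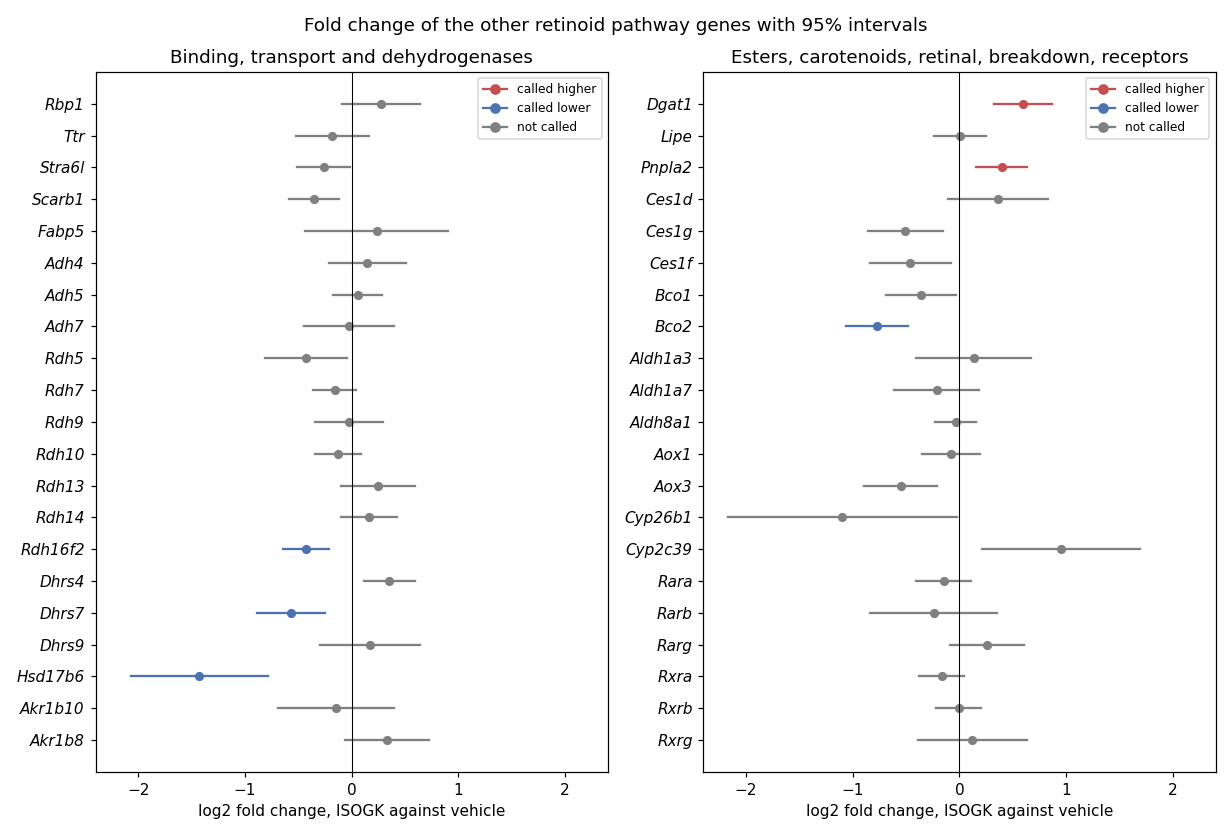
Log2 fold change, ISOGK against vehicle (horizontal axes), of the 42 other retinoid pathway genes tested, with 95% confidence intervals from edgeR and colour for calls at an adjusted p under 0.05. *Dgat1* and *Pnpla2* were higher, *Bco2*, *Rdh16f2*, *Dhrs7* and *Hsd17b6* were lower, and the other 36 were not called.

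The genes whose log2 CPM followed the called members most closely over the 8 libraries are given as a description. *Retsat* was followed by *Hadhb*, a subunit of the mitochondrial trifunctional protein of fatty acid oxidation (Pearson's r = 0.997), and by *Creg1* (r = 0.993). *Rbp4* was followed by *Rab34* (r = 0.984) and *Snapin* (r = 0.981), and *Adh1* by *Adi1* (r = 0.976) and *Tgm1* (r = 0.975). The 8 points share the split into groups, which both genes of each pair follow.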

How the data were processed

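RNA of whole liver was sequenced from 8 mice, 4 in each group. The authors mapped single-end reads with HISAT2 and counted them per gene with StringTie, and raw counts in whole numbers were deposited for 16540 gene symbols. The build is mm10 per the submitters' processing notes. Which annotation release was used, and whether strand was used, is not given in the sources used here. Columns named for DMSO were taken as the vehicle group and matched to mice by number.

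The filter filterByExpr, set to at least 10 counts and a total of at least 15, kept 12307 genes. These were normalised by TMM and fitted in R 4.3.3 with edgeR 4.0.16, whose robust quasi-likelihood test was followed by Benjamini-Hochberg adjustment over all genes tested. CPM are scaled with TMM factors, and exact permutation tests used log2 CPM with a prior count of 2. Exon lengths and positions come from GENCODE M21 (GRCm38), in which 16190 symbols and all 9 members had 1 gene, and sequences from RefSeq. The p-values set the difference between groups against the spread between these mice, which edgeR estimated gene by gene. The common biological coefficient of variation was 0.164. Counting intervals cover counting error only, as reads carried no molecular identifiers. No pair of libraries within a group agreed within sampling noise. The chi-square per gene was 18.1 to 33.5 for pairs of vehicle-treated mice and 33.2 to 99.6 for pairs of ISOGK-treated mice. Pairs with ISOGK-treated mouse 4 had the highest values, 84.8 to 99.6.

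The 9 members, the pathway lists and the marker lists were chosen with earlier results of these data known. Named genes were the members, the other pathway genes called, *Rara*, *Rxra* and the tested *Adh* and *Rdh* cluster genes, with 2 genes most like each called member. *Ttr*, *Bco1*, *Aldh1a7*, *Cyp26b1*, *Cyp2c39* and the ratios were added after their values were seen. The alternatives were DESeq2 1.42.0, limma-voom (limma 3.58.1), edgeR scaled by DESeq2's factors or by library size only, no filter, at least 10 counts in every library, no robust option, a replicate block and each mouse left out. The methods were tested on simulated data. Genes listed without a row in the table were not analysed here.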

Additional observations from a re-analysis of the deposited data

How the results depend on the processing

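*Retsat* was called in all 16 alternatives. The number of members called higher was 2, and 1 (*Retsat*) under the replicate block or under library size alone, with 1 to 2 when a mouse was left out. The number called lower was 1, and 2 with DESeq2 (*Lrat* and *Adh1*), with 0 to 2 when a mouse was left out. Past both thresholds there was 1 member, and 1 to 2 when a mouse was left out, the second being *Cyp26a1* without ISOGK-treated mouse 1. Of the other pathway genes, 2 were called higher, and 3 with DESeq2 (*Dgat1*, *Pnpla2* and *Dhrs4*). The number was 1 with limma-voom, DESeq2's size factors, library size alone, no filter or no robust option, with 0 to 3 when a mouse was left out. Called lower were 4, and 7 with DESeq2 or library size alone and 5 with no filter, with 1 to 4 when a mouse was left out. The log2 fold change of *Dhrs3* turned negative with limma-voom (-0.0022), library size alone (-0.12), no filter (-0.0031), the replicate block (-0.0021) and when vehicle-treated mouse 1 or 3 (-0.05 and -0.02) or ISOGK-treated mouse 2 or 3 (-0.10 and -0.0047) was left out, with a range of -0.096 to 0.076 over the mice left out. That of *Aldh1a1* ranged from -0.27 to 0.025 over the mice left out, and was positive only without ISOGK-treated mouse 4. By CPM without division by length, 7 of 9 members kept their rank. Scaling by library size alone shifted the median log2 fold change of all genes by -0.13 and the share of higher calls from 54.5% (506 higher, 423 lower) to 24.6% (262 higher, 804 lower). DESeq2 called 765 genes higher and 670 lower, and leaving out a mouse gave 219 to 712 higher and 160 to 523 lower. Same-numbered mice had correlations of -0.01 to 0.08, and only number 3 correlated best with its own number. These correlations do not settle whether the replicate numbers pair the mice. With the replicate block *Rbp4* (adjusted p = 0.0755) and *Hsd17b6* (adjusted p = 0.0865, log2 fold change -1.49) lost their edgeR calls. *Cyp26a1* had no value with at least 10 counts in every library, since that filter removes it. Depth limits *Cyp26a1* most, with 2 to 28 counts per library. The causes of these changes were not tested.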

Other observations

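Of the 42 other pathway genes tested, 10 had groups that did not overlap, 4 higher and 6 lower with ISOGK, where 15.3% of all genes tested did not overlap. The test called 6 of the 10, and the 4 that it did not call were *Cyp2c39* and *Dhrs4*, both higher, and *Aox3* and *Scarb1*, both lower. *Dhrs4*, a reductase of retinal, was called in 2 of 16 alternatives, and its log2 fold change was 0.35 (edgeR adjusted p = 0.0736). *Aldh1a2*, a further retinal dehydrogenase, was too scarce to be tested, with 0 to 4 counts per library with vehicle and 5 to 17 with ISOGK. It was at 0.0502, 0.119, 0 and 0.179 CPM in vehicle-treated mice 1 to 4 and at 0.245, 0.897, 0.396 and 0.314 CPM in ISOGK-treated mice 1 to 4, without overlap. *Aox3*, an aldehyde oxidase that can oxidise retinal, was at 446, 348, 427 and 383 CPM in the vehicle group and 343, 283, 278 and 190 CPM in the ISOGK group, also without overlap, and its log2 fold change of -0.55 missed the threshold (edgeR adjusted p = 0.0554) but was called in 5 of 16 alternatives. *Scarb1*, a lipoprotein receptor that takes up carotenoids, was also called in 2 of 16 alternatives, and its log2 fold change was -0.35 (edgeR adjusted p = 0.0699). These genes were picked after their values were seen.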
